A study of Mus musculus with 6 samples.

Results

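Collagens are the main structural proteins of the extracellular matrix, and 44 genes of the family were followed in bone marrow of mice with and without nuclear myosin 1. The members are all genes whose GENCODE M21 symbol is Col, digits, a and digits, out of 46603 genes listed for each library. They were grouped by the collagen type into 11 fibrillar genes, 8 genes of basement membrane collagens and 25 others. The 3 NM1 KO mice carried a knockout of nuclear myosin 1, a nuclear form of the motor protein encoded by Myo1c, and the 3 NM1 WT mice were wild type. All were C57/Bl6 mice aged 8 months, and the labels name no treatment. Each library came from the marrow of 1 mouse, collected by centrifugation from femurs and tibiae, and no cell type was sorted, so that fewer cells of a type and less RNA per cell cannot be told apart.

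A collagen molecule is a triple helix of 3 chains, products of 1 gene or of several, built of repeats with glycine at regular steps. Fibrillar collagens are secreted as procollagens, trimmed and crosslinked into the fibrils of bone, tendon and the reticular network of marrow. Basement membrane collagens form sheets under endothelium or, for types XV and XVIII, carry sugar chains and release fragments that act on vessels. The remaining types decorate fibrils, form networks and beaded filaments, or span the cell membrane. In marrow, osteoblasts, reticular stroma and vessel walls are known sources of collagen.

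Totals ran from 21101616 to 22618802 counts in NM1 KO libraries and from 15145052 to 17580660 counts in NM1 WT libraries, so every NM1 KO library was deeper. Levels are therefore in CPM (counts scaled to a common library size with TMM factors), where 1 CPM stood for 21.3 to 23 counts in NM1 KO and 14.7 to 17.3 counts in NM1 WT. Myo1c, the gene of the targeted protein, had 73.8, 59.1 and 59.7 CPM in NM1 KO mice, against 89.8, 115 and 102 CPM in NM1 WT mice (log2 fold change -0.67, SE 0.14, adjusted p = 0.0516 in edgeR's quasi-likelihood test), a gene total that does not check the nuclear form itself. Y-linked genes were detected in NM1 KO 1, NM1 KO 2 and NM1 WT 2 and had 0 counts in the other 3 libraries, a split that is not balanced between genotypes. NM1 WT 2 stood apart in that its log2 CPM had a correlation across genes of 0.969 with NM1 KO 1 and of 0.957 with each of the other NM1 WT libraries. Megakaryocyte and platelet markers summed to 2140 to 4555 CPM in NM1 KO mice, against 1041 to 1364 CPM in NM1 WT mice. They differed between genotypes and are no neutral check of the marrow label.

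The clearest difference was in type I collagen, the main collagen of bone. Col1a2, its α2 chain, rose 4.22-fold in NM1 KO marrow, and it was the single member past an adjusted p of 0.05. Col1a1, its α1 chain, was 1.93-fold higher without passing. The other 42 genes together summed to 218 ± 25.9 CPM in NM1 KO mice, against 210.0 ± 53.8 CPM in NM1 WT mice (SD, n = 3 each). Of the 28 members with enough counts to be tested, 1 was called higher and 0 lower by edgeR's quasi-likelihood test, against 0.591% higher and 0.186% lower (0.776% in either direction) among all 15069 tested genes. At an unadjusted p under 0.05, 7 members were higher and 1 was lower, where 8.44% and 8.32% of all tested genes were. DESeq2 called 3 members higher and 1 lower, against 2.65% and 2.61% of all genes (5.27% in either direction), and limma-voom called Col1a2 alone, against 0.246%. These shares of all tested genes are also the background for the counts of each class and list below. The replicate block called 3 members (2.79% of all genes), and a fit with no low-count filter called 5 (4.67%). Without NM1 WT 2 there were 3 calls among members (2.18% of all genes) and without NM1 KO 3 there were 2 (1.16%). Under every other setting Col1a2 alone was called, against 0.757% of all genes with RLE scaling, 0.995% with total counts, 0.786% with a filter of 10 counts in 3 libraries, 1.12% with halved counts and 0.398% with the Y-linked state. The same held without NM1 KO 1 (0.795%), NM1 KO 2 (0.262%), NM1 WT 1 (0.167%) and NM1 WT 3 (0.193%). The median log2 fold change was 0.16 over the 28 members and 0.00 over all tested genes, and 17 members were positive and 11 negative, where 50.2% of all tested genes were positive.

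**Figure D1:**
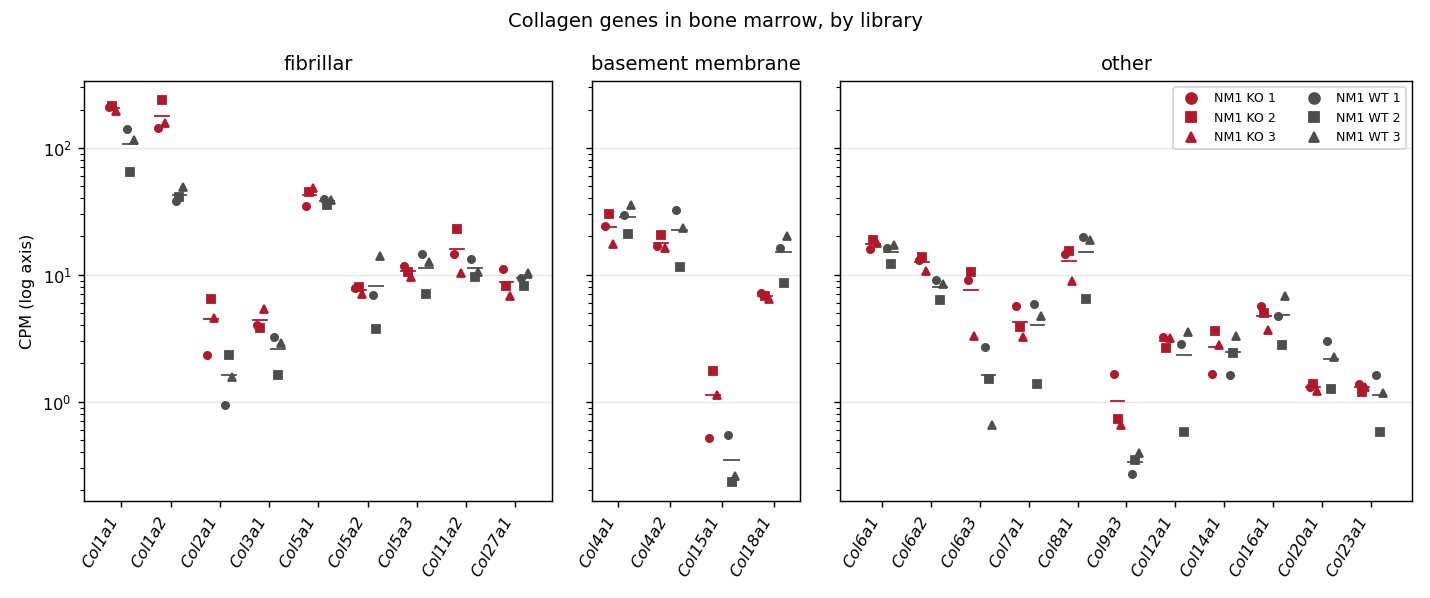
CPM on a log axis of the 24 collagen genes with a mean of at least 1 CPM in either genotype, by class. Each symbol is 1 library, NM1 KO in red left of NM1 WT in grey, and the bars are means of 3 libraries. In NM1 KO, Col1a1 and Col1a2 lie above all other members, and all 3 NM1 KO values of Col1a2 (144 to 237 CPM) lie above the NM1 WT values (37.8 to 49.2 CPM).

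Col1a2 (ENSMUSG00000029661, chromosome 6, 4504814 to 4541544 on the plus strand of GRCm38) had 144, 237 and 157 CPM in NM1 KO 1 to 3, against 37.8, 40.6 and 49.2 CPM in NM1 WT 1 to 3. The groups did not overlap, and the lowest NM1 KO library lay well above the highest NM1 WT library. The underlying counts were 3311, 5146 and 3354 in NM1 KO and 557, 700 and 750 in NM1 WT, so depth did not limit this gene. Means were 179 ± 50.3 CPM in NM1 KO mice, against 42.5 ± 5.93 CPM in NM1 WT mice (SD, n = 3 each). The log2 fold change was 2.08 (SE 0.19, adjusted p = 0.000770 in edgeR's quasi-likelihood test). Col1a2 passed under each of the 15 alternative settings, with log2 fold changes of 1.83 to 2.21 and adjusted p from 4.52e-38 to 0.00778. Within the libraries with Y-linked reads it had 144 and 237 CPM in NM1 KO mice, against 40.6 CPM in NM1 WT mice, and within those without it had 157 CPM in NM1 KO mice, against 37.8 and 49.2 CPM in NM1 WT mice.

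The sequence before the RefSeq start of Col1a2 is shown because this is the gene that passed. Beside it is that of Col5a1, the fibrillar chain next in abundance per base after type I, which did not. Both are RefSeq windows of GRCm38.p6, 5′ to 3′, and capitals mark GGGCGG (or CCGCCC on the other strand), the core of the GC box, and CCAAT (or ATTGG). For Col1a2 the stretch is chr6:4505370-4505518 on the plus strand, 149 bases whose last 26 lie in a longer first exon of the GENCODE annotation. Its CCAAT falls within those 26 bases. GENCODE starts the gene further upstream, at 4504814, so the stretch lies inside the annotated gene, directly after an annotated exon. For Col5a1 it is chr2:27886175-27886424 on the plus strand, the 250 bases before the start.
Col1a2: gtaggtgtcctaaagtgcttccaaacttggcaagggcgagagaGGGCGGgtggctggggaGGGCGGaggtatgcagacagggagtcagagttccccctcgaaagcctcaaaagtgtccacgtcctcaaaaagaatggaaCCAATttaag
Col5a1: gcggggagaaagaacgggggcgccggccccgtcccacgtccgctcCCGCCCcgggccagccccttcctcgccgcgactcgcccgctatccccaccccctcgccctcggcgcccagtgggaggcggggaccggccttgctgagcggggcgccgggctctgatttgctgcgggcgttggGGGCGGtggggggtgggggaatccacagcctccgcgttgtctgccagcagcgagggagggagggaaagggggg

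Col1a2 held 2 GC box cores, which begin 205 and 188 bases before the RefSeq start, and 1 CCAAT, which begins 109 bases before it. Col5a1 held 1 GC box core on each strand and no CCAAT. No RefSeq window was available for Col1a1, so its sequence is not shown. Over 38 windows of 35 collagen genes, the 250 bases before the start held GGGCGG on either strand in 57.9% and CCAAT on either strand in 34.2%, against 32.7% and 33.8% of all 32851 windows. TATAAA on either strand was found in 13.2% of the collagen windows and 12.4% of all windows. These motifs share no stretch of sequence in the printed windows, and a match describes the window only.

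Col1a1 (ENSMUSG00000001506, chromosome 11, 94936224 to 94953042) had 211, 214 and 195 CPM in NM1 KO mice, against 141, 64.6 and 115 CPM in NM1 WT mice. The genotypes did not overlap, and the NM1 KO libraries were close together while NM1 WT 2 was the lowest. Means were 207 ± 10.7 CPM in NM1 KO mice, against 107 ± 39.1 CPM in NM1 WT mice (SD, n = 3 each). The log2 fold change of 0.95 (SE 0.22) had an adjusted p of 0.0786 in edgeR's quasi-likelihood test and did not pass. It passed without NM1 WT 2 (adjusted p = 0.0410) and under 3 other settings, with a range of 9.50e-09 to 0.238 over the 15 alternatives. Without NM1 WT 2 the log2 fold change was 0.69, so the call was gained while the difference was smaller.

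The type I molecule is known as a heterotrimer of 2 α1 chains and 1 α2 chain. Reads per base of the principal transcript gave a Col1a1 to Col1a2 ratio of 1.32, 0.816 and 1.12 in NM1 KO libraries, against 3.37, 1.44 and 2.11 in NM1 WT libraries. The ratio was lower in every NM1 KO library than in every NM1 WT library, with means of 1.08 ± 0.255 in NM1 KO and 2.31 ± 0.983 in NM1 WT. It is a quotient within a library and so does not depend on the library size. With lengths taken over all annotated exons every library's ratio is multiplied by the same constant (means of 2.28 ± 0.535 in NM1 KO and 4.85 ± 2.06 in NM1 WT), so the level of the ratio depends on the lengths and its order over libraries cannot. The annotation of Col1a2 spans 12426 exonic bases against 5348 in its principal transcript.

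Together both type I chains made up 62.6%, 64.8% and 64.4% of collagen CPM in NM1 KO and 42.7%, 41.6% and 40.5% in NM1 WT. These shares varied by little within a genotype, and NM1 WT 2, with the lowest collagen level, had a share between those of NM1 WT 1 and NM1 WT 3. The summed level of both chains was 355, 451 and 352 CPM in NM1 KO mice, against 179, 105 and 164 CPM in NM1 WT mice. All collagen genes together reached 604 ± 81.5 CPM in NM1 KO mice, against 360.0 ± 92.4 CPM in NM1 WT mice, without overlap.

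**Figure D2:**
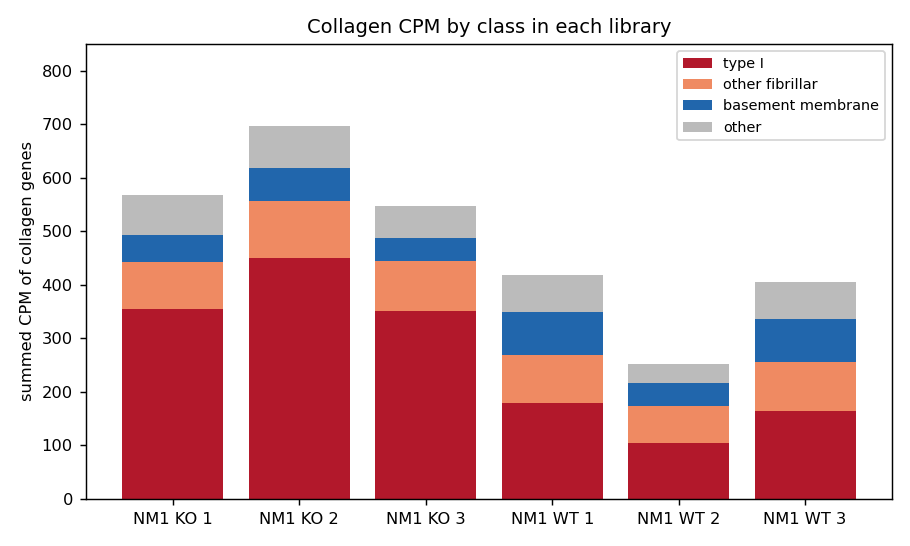
Summed CPM of collagen genes in each library, stacked by class, with NM1 KO libraries left of NM1 WT libraries. The type I segment is 352 to 451 CPM in NM1 KO mice, against 105 to 179 CPM in NM1 WT mice, while the remaining segments together are 195 to 246 CPM in NM1 KO mice, against 148 to 242 CPM in NM1 WT mice.

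Marker genes of bone, stroma and muscle cells were read beside type I collagen. Osteoblast markers summed to 371, 515 and 188 CPM in NM1 KO mice, against 168, 193 and 153 CPM in NM1 WT mice, so that NM1 KO 3 lay below NM1 WT 2. Much of these sums was Spp1, with 204, 321 and 52.6 CPM in NM1 KO mice, against 44.1, 95.5 and 30.3 CPM in NM1 WT mice. Every NM1 KO library lay above every NM1 WT library in 4 of the 9 tested, against 10.8% of all tested genes. Among these was Ibsp, with 118, 134 and 87.1 CPM in NM1 KO mice, against 79.9, 65.9 and 65.9 CPM in NM1 WT mice. Of 9 tested osteoblast markers, 0 of which passed in edgeR's quasi-likelihood test, 6 were higher at an unadjusted p under 0.05 (8.44% of all tested genes), 3 were called higher by DESeq2 (2.65% of all), and limma-voom called 0. Bglap, osteocalcin, averaged 2.27 CPM in NM1 KO mice, against 0.598 CPM in NM1 WT mice, and Sp7, the osteoblast transcription factor osterix, 3.01 CPM in NM1 KO mice, against 1.80 CPM in NM1 WT mice, so neither was absent. Other members of the list ran the other way without passing, with log2 fold changes of -0.30 (SE 0.21) for Runx2 and -0.33 (SE 0.60) for Ifitm5. Markers of reticular stroma and fibroblasts summed to 1594 to 2209 CPM in NM1 KO mice, against 1318 to 1622 CPM in NM1 WT mice, and edgeR called 3 of 11 tested higher and 0 lower. The overlap of these sums hides opposite directions in their 2 largest members. Cxcl12 had 972, 1400 and 747 CPM in NM1 KO mice, against 319, 430 and 432 CPM in NM1 WT mice. Vim had 576, 486 and 551 CPM in NM1 KO mice, against 668, 923 and 640 CPM in NM1 WT mice. In this list 7 were higher and 2 lower at an unadjusted p under 0.05, against 8.44% and 8.32% of all tested genes. DESeq2 called 6 higher and 2 lower, against 2.65% and 2.61%, and limma-voom called 1 higher. Every NM1 KO library lay above every NM1 WT library in 7 of the 11 tested, against 10.8% of all tested genes. These included the 3 that edgeR called, Cxcl12, Lepr and Kitl. Every NM1 KO library lay below every NM1 WT library in Pi16 (log2 fold change -0.69, SE 0.19) and Vim (-0.47, SE 0.16). Among all tested genes 9.75% did so. Skeletal muscle markers summed to 72.4 to 94.6 CPM in NM1 KO mice, against 18.1 to 30.3 CPM in NM1 WT mice, with 6 of 11 called higher by edgeR, against 0.591% of all tested genes, 7 by DESeq2 and 2 by limma-voom, while Tnnc2 had 0 counts in all libraries and Mb had 0 in NM1 WT. The part of bone, stroma or muscle cells in the type I values was not tested.

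The other fibrillar genes were lower in level per base, and in edgeR's quasi-likelihood test none passed. Col5a1, a chain of the type V collagen that starts type I fibrils, had 34.9, 44.6 and 47.9 CPM in NM1 KO mice, against 39.2, 35.2 and 38.8 CPM in NM1 WT mice. The groups overlapped, and the log2 fold change of 0.17 (SE 0.15) was small beside that of Col1a2. Its ratio to Col1a1 per base was 0.116, 0.147 and 0.174 in NM1 KO libraries and 0.195, 0.385 and 0.237 in NM1 WT libraries, lower in all NM1 KO libraries. Transcripts on the opposite strand share up to 113 exonic bases with Col5a1, and with no strand setting given their reads cannot be separated.

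Col5a2 and Col5a3, the partner chains of type V, both overlapped between genotypes, at -0.11 (SE 0.40) and -0.09 (SE 0.27) on the log2 scale. Col5a2 had 7.88, 8.01 and 6.99 CPM in NM1 KO mice, against 6.92, 3.71 and 14 CPM in NM1 WT mice, where NM1 WT 3 was the highest of all libraries. Col5a3 had 11.8, 10.5 and 9.66 CPM in NM1 KO mice, against 14.5, 7.07 and 12.5 CPM in NM1 WT mice. For both, the NM1 WT libraries spread around the NM1 KO values, with NM1 WT 2 the lowest.

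Col3a1, the sole chain of type III collagen in reticular fibres, had 4.00, 3.78 and 5.39 CPM in NM1 KO mice, against 3.26, 1.62 and 2.89 CPM in NM1 WT mice. The genotypes were apart by little, and at a log2 fold change of 0.76 (SE 0.40) the gene did not pass (adjusted p = 0.36 in edgeR's quasi-likelihood test). A microRNA annotated on the same strand shares 141 exonic bases with Col3a1. Per base of transcript Col1a1 stood 45.6 ± 10.3 times above Col3a1 in NM1 KO and 38.5 ± 1.92 times in NM1 WT, and these ratios overlapped.

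Col2a1, the chain of the cartilage collagen type II, had 2.35, 6.45 and 4.6 CPM in NM1 KO mice, against 0.950, 2.32 and 1.57 CPM in NM1 WT mice. The lowest NM1 KO library lay just above NM1 WT 2, and the log2 fold change of 1.46 (SE 0.50) had an adjusted p of 0.174 in edgeR's quasi-likelihood test. It passed under 1 of the 15 alternatives, with no low-count filter (1.48, adjusted p = 0.0422), over a range up to 0.579. Counts were 54 to 140 in NM1 KO and 14 to 40 in NM1 WT. The cartilage markers summed to 3.39 to 6.56 CPM in NM1 KO mice, against 2.17 to 5.51 CPM in NM1 WT mice, and 2 of 9, Sox9 and Comp, had enough counts for the test and neither passed. Of the rest, Acan ran the other way, with every NM1 KO library below every NM1 WT library. Its summed counts were 2 in NM1 KO and 14 in NM1 WT. Matn1, Hapln1 and Snorc had 0 counts in NM1 KO, against 8, 2 and 2 summed counts in NM1 WT. Matn3, Chad and Cnmd had 2, 16 and 4 summed counts in NM1 KO, against 0, 14 and 2 in NM1 WT.

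Col11a2, a type XI chain of cartilage fibrils, had 14.5, 22.8 and 10.4 CPM in NM1 KO mice, against 13.4, 9.62 and 10.6 CPM in NM1 WT mice, with overlap (log2 fold change 0.51, SE 0.28). Its partner Col11a1 stayed near 1 CPM, with 0.783 to 1.11 CPM in NM1 KO mice, against 0.232 to 1.36 CPM in NM1 WT mice. Col27a1, a long fibrillar chain of cartilage, had 11, 8.20 and 6.85 CPM in NM1 KO mice, against 9.50, 8.11 and 10.4 CPM in NM1 WT mice. Col24a1, a fibrillar chain of developing bone, had 0 counts in all 6 libraries, which allows up to 0.261 to 0.281 CPM in NM1 KO libraries and 0.348 to 0.407 CPM in NM1 WT libraries, as 6 counts or 3 read pairs.

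Over the 10 tested fibrillar genes the median log2 fold change was 0.34, with 7 positive. In 4 of these 10, Col1a1, Col1a2, Col2a1 and Col3a1, all NM1 KO libraries lay above all NM1 WT libraries, as they did in 10.8% of all tested genes, and in 0 all lay below. Without type I, the fibrillar genes summed to 87.2, 106 and 92.8 CPM in NM1 KO mice, against 89.1, 67.9 and 91.9 CPM in NM1 WT mice, with overlap. By level per base of the principal transcript Col1a1 (34.9 ± 1.81 CPM per kilobase) and Col1a2 (33.6 ± 9.40) did not differ beyond their spread in NM1 KO, while in NM1 WT Col1a1 had 18.1 ± 6.59 and Col1a2 7.95 ± 1.11 CPM per kilobase. Col5a1 was next in both genotypes, at 5.05 ± 0.805 CPM per kilobase in NM1 KO and 4.49 ± 0.257 in NM1 WT.

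**Figure D3:**
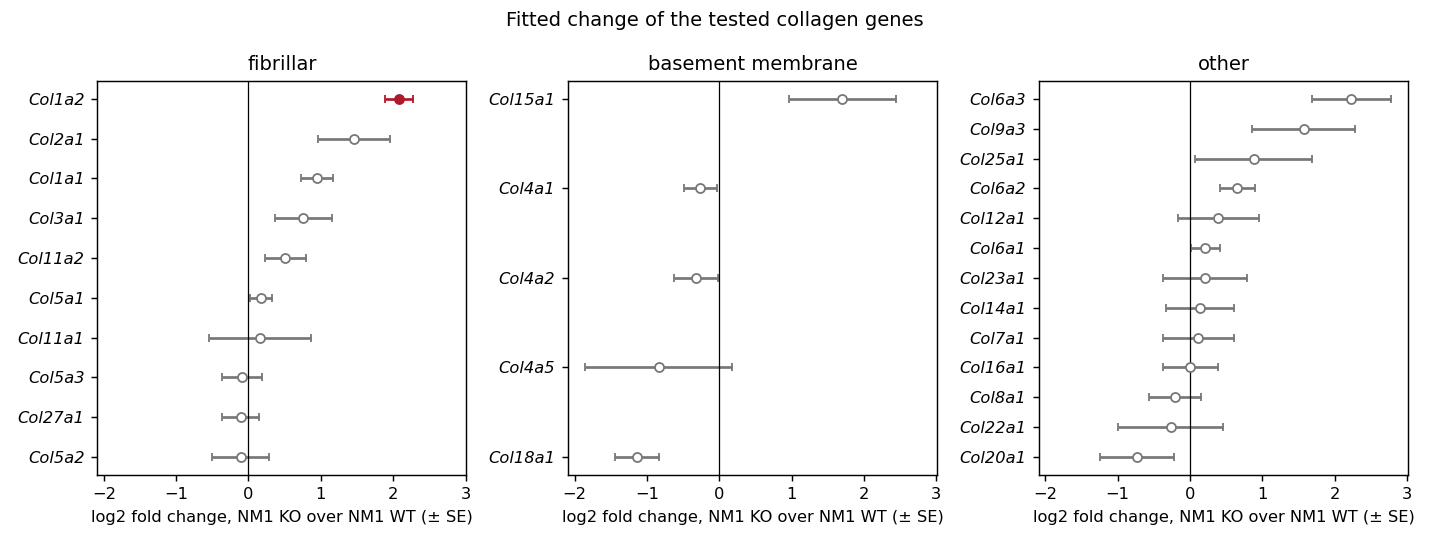
Fitted log2 fold change (NM1 KO over NM1 WT) with its standard error for the 28 tested collagen genes, by class. The filled red point is the gene past an adjusted p of 0.05, Col1a2 at 2.08, and open points did not pass. Basement membrane genes run from -1.14 (Col18a1) to 1.70 (Col15a1).

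Basement membrane collagens had no call in edgeR's quasi-likelihood test, and DESeq2 called Col18a1 lower. They summed to 50.0, 60.6 and 42.3 CPM in NM1 KO mice, against 80.5, 42.8 and 79.5 CPM in NM1 WT mice, and the low NM1 WT 2 overlapped with NM1 KO. Of 5 tested genes 0 passed in edgeR's quasi-likelihood test, 1 was higher and 1 lower at an unadjusted p under 0.05, and limma-voom called 0. The median log2 fold change was -0.32, with 4 of 5 negative.

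Col18a1, the chain of type XVIII collagen from which endostatin is cut, had 7.14, 6.82 and 6.47 CPM in NM1 KO mice, against 16.2, 8.58 and 20.3 CPM in NM1 WT mice. It was the single tested member in which every NM1 KO library lay below every NM1 WT library, as 9.75% of all tested genes did. Its log2 fold change was -1.14 (SE 0.30, adjusted p = 0.101 in edgeR's quasi-likelihood test). Without NM1 WT 2, the NM1 WT library nearest to NM1 KO, the gene passed at -1.42 (adjusted p = 0.0183), it also passed with no low-count filter (adjusted p = 0.00207), and its adjusted p reached up to 0.347 under the 15 alternatives. DESeq2 called it lower, and limma-voom did not.

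Col15a1, the related type XV chain of vessel and muscle basement membranes, ran the other way from very few reads. It had 0.522, 1.75 and 1.13 CPM in NM1 KO mice, against 0.543, 0.232 and 0.262 CPM in NM1 WT mice, with NM1 KO 1 inside the NM1 WT range. It did not pass at 1.70 on the log2 scale (SE 0.74, adjusted p = 0.276 in edgeR's quasi-likelihood test), on 12 to 38 counts in NM1 KO and 4 to 8 counts in NM1 WT.

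Col4a1 and Col4a2 encode the chains of the most widespread type IV sheet and lie head to head on chromosome 8, with 22 exonic bases in common. Col4a1 had 24.4, 30.0 and 17.4 CPM in NM1 KO mice, against 29.5, 21.1 and 35.2 CPM in NM1 WT mice (log2 fold change -0.26, SE 0.23). Col4a2 had 16.7, 20.7 and 16.2 CPM in NM1 KO mice, against 32.2, 11.6 and 23.3 CPM in NM1 WT mice (-0.32, SE 0.30). Both overlapped between genotypes and had NM1 WT 2 as the lowest NM1 WT library. Their ratio per base was 1.29 ± 0.218 in NM1 KO libraries and 1.38 ± 0.447 in NM1 WT libraries, with overlap.

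The minor type IV chains, known from kidney and other specialised membranes, were close to absent. Col4a5 had 0.276 to 0.783 CPM in NM1 KO mice, against 0 to 1.49 CPM in NM1 WT mice (log2 fold change -0.84, SE 1.02). Col4a3, Col4a4 and Col4a6 were too low to be tested, with 2 to 12, 0 to 4 and 2 to 14 counts in NM1 KO libraries and 2 to 6, 2 to 4 and 0 to 2 counts in NM1 WT libraries. Beside these values, the vascular endothelium markers had positive log2 fold changes in 12 of 12, where 50.2% of all tested genes did, and summed to 232 to 321 CPM in NM1 KO mice, against 154 to 222 CPM in NM1 WT mice. Of them edgeR called 1 higher, Esam, a junction protein, against 0.591% of all tested genes. At an unadjusted p under 0.05, 6 were higher and 0 lower, against 8.44% and 8.32% of all tested genes. DESeq2 called 6 higher, against 2.65%, and limma-voom called 0.

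Type VI collagen, a beaded filament of α1, α2 and α3 chains found around stromal, fat and muscle cells, was uneven between its chains. Col6a3 (chromosome 1, 90765923 to 90843971), the long α3 chain, had 9.05, 10.5 and 3.28 CPM in NM1 KO mice, against 2.71, 1.51 and 0.656 CPM in NM1 WT mice. All NM1 KO libraries lay above NM1 WT, but NM1 KO 3 was much nearer to NM1 WT 1 than to its own group. The fitted log2 fold change of 2.23 (SE 0.55) was as large as that of Col1a2, yet with an adjusted p of 0.0864 in edgeR's quasi-likelihood test it did not pass. It passed without NM1 KO 3 (log2 fold change 2.59, adjusted p = 0.0360), with DESeq2 and under 2 other settings, over a range of 6.05e-06 to 0.342.

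Col6a2 had 13.1, 13.7 and 10.7 CPM in NM1 KO mice, against 9.16, 6.37 and 8.39 CPM in NM1 WT mice, again without overlap (log2 fold change 0.65, SE 0.24, adjusted p = 0.201 in edgeR's quasi-likelihood test). Col6a1 had 15.9, 18.7 and 17.7 CPM in NM1 KO mice, against 16.1, 12.1 and 17.2 CPM in NM1 WT mice, with overlap (0.21, SE 0.20). The ratio of Col6a3 to Col6a1 per base was 0.259, 0.257 and 0.0844 in NM1 KO libraries and 0.0769, 0.0569 and 0.0174 in NM1 WT libraries, so the α3 transcript was scarce beside α1 in every library. The ratio of Col6a1 to Col6a2 was 1.18, 1.31 and 1.60 in NM1 KO libraries and 1.69, 1.82 and 1.97 in NM1 WT libraries. Neither pair overlapped between genotypes. The alternative α chains Col6a4, Col6a5 and Col6a6 had at most 10 counts in a library.

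**Figure D4:**
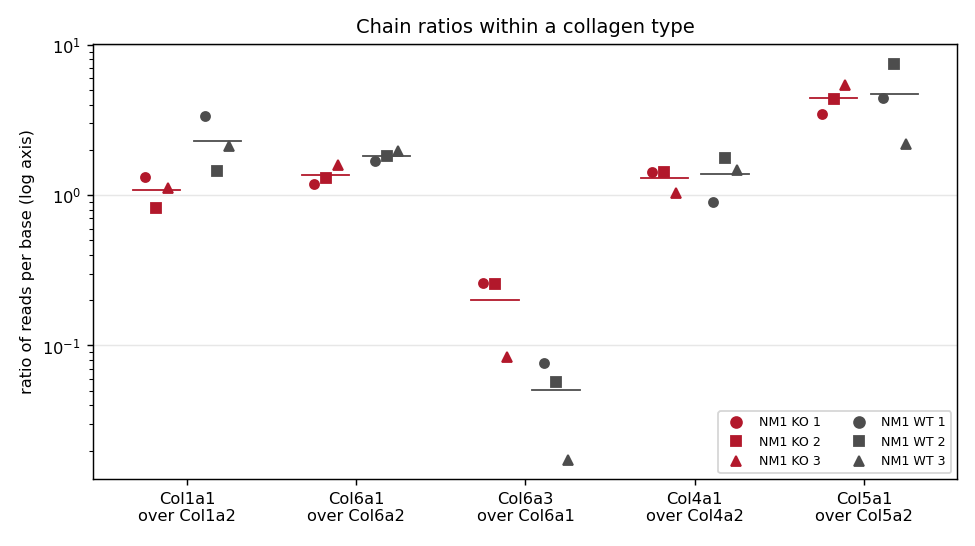
Ratio of reads per base of the principal transcript between chains of 1 collagen type, on a log axis, by library, with NM1 KO in red left of NM1 WT in grey and bars at the means. Genotypes do not overlap for the type I and type VI pairs, at 0.816 to 1.32 in NM1 KO and 1.44 to 3.37 in NM1 WT for Col1a1 over Col1a2, and they overlap for the type IV and type V pairs.

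The network collagen gene Col8a1, known from vessel walls, had 14.5, 15.3 and 8.91 CPM in NM1 KO mice, against 19.9, 6.49 and 18.6 CPM in NM1 WT mice. NM1 WT 2 was the lowest library and the other NM1 WT libraries were the highest, so the groups overlapped (log2 fold change -0.21, SE 0.36). Its partner Col8a2 was not tested, at 2 to 8 counts in NM1 KO and 6 to 16 counts in NM1 WT. Col10a1, the marker of hypertrophic cartilage, had 2 counts in NM1 KO 1 and 0 in the other libraries. Col7a1, the anchoring fibril of skin, had 3.24 to 5.70 CPM in NM1 KO mice, against 1.39 to 5.84 CPM in NM1 WT mice.

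Fibril-associated collagens, which sit on the surface of fibrils, were low and mixed. Col16a1 had 5.66, 4.97 and 3.66 CPM in NM1 KO mice, against 4.75, 2.78 and 6.82 CPM in NM1 WT mice, a ratio of means of 0.996. Col12a1, of tendon and bone surfaces, had 3.22, 2.67 and 3.19 CPM in NM1 KO mice, against 2.85, 0.580 and 3.54 CPM in NM1 WT mice. Col14a1 had 1.65 to 3.59 CPM in NM1 KO mice, against 1.63 to 3.28 CPM in NM1 WT mice. In all 3 genes the genotypes overlapped.

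Col20a1 had 1.31, 1.38 and 1.22 CPM in NM1 KO mice, against 2.99, 1.27 and 2.23 CPM in NM1 WT mice, where again NM1 WT 2 lay among the NM1 KO values (log2 fold change -0.73, SE 0.51). A transcript on its own strand shares 79 exonic bases with it. Col9a3, a cartilage type IX chain, had 1.65, 0.737 and 0.656 CPM in NM1 KO mice, against 0.271, 0.348 and 0.393 CPM in NM1 WT mice. It did not overlap, but it rests on 4 to 38 counts and shares 234 exonic bases with Tcfl5 on the other strand (log2 fold change 1.57, SE 0.71, adjusted p = 0.293 in edgeR's quasi-likelihood test). Of the other type IX chains, Col9a1 had 0 counts in all libraries, and Col9a2, too low to be tested, had 4, 0 and 10 counts in NM1 KO libraries, against 0, 0 and 2 counts in NM1 WT libraries. Col22a1 had 0.281 to 0.696 CPM in NM1 KO mice, against 0.393 to 0.882 CPM in NM1 WT mice, and Col19a1, with at most 14 counts in a library, was not tested.

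Of the membrane-spanning collagens, Col23a1 had 1.20 to 1.39 CPM in NM1 KO mice, against 0.580 to 1.63 CPM in NM1 WT mice, and Col25a1 0.348 to 1.01 CPM in NM1 KO mice, against 0.116 to 0.525 CPM in NM1 WT mice. Both overlapped. Col13a1 and Col17a1, and the unclassed Col26a1 and Col28a1, had at most 10 counts in a library. In all, 16 members were not tested, of which Col6a6, Col9a1 and Col24a1 had 0 counts everywhere. Among the 13 tested members of the other class 0 passed in edgeR's quasi-likelihood test, 3 were higher and 0 lower at an unadjusted p under 0.05, DESeq2 called Col6a3 alone, and limma-voom called 0.

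Single libraries stood out among the tested members, but the same counts over all tested genes were not made. NM1 WT 2 was the lowest of the 3 NM1 WT libraries in 21 of the 28 tested members and the lowest of all 6 libraries in 16. NM1 KO 2 was the highest of all libraries in 10 members and NM1 WT 1 in 9. The share of type I in collagen CPM did not follow this, as given above. Within the libraries without Y-linked reads, collagens other than type I summed to 195 CPM in NM1 KO mice, against 240.0 and 242 CPM in NM1 WT mice, and within those with Y-linked reads to 213 and 246 CPM in NM1 KO mice, against 148 CPM in NM1 WT mice. Each of these sets has a single mouse on one side, so no direction is read from them.

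The wider collagen pathway was followed with 6 lists holding 93 genes that are not collagens, 86 of them tested. Relative to NM1 WT, 2 rose and 0 fell in edgeR's test, against 0.591% and 0.186% of all tested genes, and the median over the 86 was 0.07 on the log2 scale. At an unadjusted p under 0.05, 16 were higher and 7 lower, against 8.44% and 8.32% of all tested genes. DESeq2 called 7 higher and 4 lower, against 2.65% and 2.61%, and limma-voom called 0, against 0.246%. Both genes that rose were small proteoglycans that bind collagen fibrils. Bgn, biglycan of bone matrix, had 64.1, 99.2 and 61.2 CPM in NM1 KO mice, against 35.0, 33.4 and 41.6 CPM in NM1 WT mice (log2 fold change 1.03, SE 0.19, adjusted p = 0.0356 in edgeR's quasi-likelihood test). Dcn, decorin, had 14.4, 20.4 and 19.2 CPM in NM1 KO mice, against 7.74, 6.14 and 9.71 CPM in NM1 WT mice (1.20, SE 0.24, adjusted p = 0.0463 in edgeR's quasi-likelihood test). Neither passed with limma-voom, with a term for Y-linked reads, or without NM1 KO 2, NM1 WT 1, NM1 WT 2 or NM1 WT 3, and Dcn also did not pass without NM1 KO 3. The 17 tested fibril partners, the list of both genes, had a median of 0.03, with 6 higher and 1 lower at an unadjusted p under 0.05 and 4 called higher by DESeq2.

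None of 17 tested genes for folding and modifying the chains passed in edgeR's quasi-likelihood test, while 1 was higher and 2 lower at an unadjusted p under 0.05, DESeq2 called 0 higher and 1 lower, and limma-voom called 0. Serpinh1, the collagen chaperone HSP47, had 66.7, 133 and 28.6 CPM in NM1 KO mice, against 30.9, 40.1 and 33.8 CPM in NM1 WT mice. It was high in NM1 KO 1 and NM1 KO 2, whereas NM1 KO 3 lay below every NM1 WT library, although type I collagen was high there as well. Plod3, a lysyl hydroxylase, had 94.9, 71.9 and 89.5 CPM in NM1 KO mice, against 115, 171 and 111 CPM in NM1 WT mice (log2 fold change -0.63, SE 0.18, adjusted p = 0.119 in edgeR's quasi-likelihood test).

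Of 16 tested genes for export, trimming and crosslinking 0 passed in edgeR's quasi-likelihood test, 4 were higher and 2 lower at an unadjusted p under 0.05, DESeq2 called 2 higher and 2 lower, and limma-voom called 0. Lox, the lysyl oxidase that crosslinks fibrils, had 5.66, 15.8 and 9 CPM in NM1 KO mice, against 3.12, 1.27 and 0.656 CPM in NM1 WT mice, without overlap (log2 fold change 2.59, SE 0.54, adjusted p = 0.0513 in edgeR's quasi-likelihood test). Pcolce2, an enhancer of propeptide removal, had 0.184 to 0.435 CPM in NM1 KO mice, against 0.927 to 2.71 CPM in NM1 WT mice, also without overlap (-2.85, SE 0.70, adjusted p = 0.0872 in edgeR's quasi-likelihood test).

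Of 12 tested genes for breakdown and uptake 0 passed in edgeR's quasi-likelihood test, 2 were higher and 2 lower at an unadjusted p under 0.05, DESeq2 called 0 higher and 1 lower, and limma-voom called 0. Ctsk, the osteoclast protease cathepsin K, had 25.9, 103 and 23.3 CPM in NM1 KO mice, against 11.8, 12.5 and 11.7 CPM in NM1 WT mice. Its NM1 KO mean was carried by NM1 KO 2, yet all 3 libraries lay above NM1 WT (log2 fold change 2.08, SE 0.47, adjusted p = 0.0657 in edgeR's quasi-likelihood test). Mmp9, the gelatinase of neutrophils and osteoclasts, had 936, 569 and 842 CPM in NM1 KO mice, against 1361, 1401 and 911 CPM in NM1 WT mice, with overlap.

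Of 10 tested collagen receptor genes 0 passed in edgeR's quasi-likelihood test, 3 were higher and 0 lower at an unadjusted p under 0.05, DESeq2 called 1 higher, and limma-voom called 0. Itga2 and Itgb1 encode the subunits of a collagen-binding integrin of platelets. Itga2 had 1.57, 1.47 and 0.938 CPM in NM1 KO mice, against 0.543, 0.348 and 0.262 CPM in NM1 WT mice. Itgb1 had 262, 363 and 255 CPM in NM1 KO mice, against 186, 219 and 206 CPM in NM1 WT mice. Both were without overlap, at log2 fold changes of 1.77 (SE 0.65) and 0.53 (SE 0.15), beside megakaryocyte markers of which edgeR called 10 of 12 higher, against 0.591% of all tested genes, DESeq2 11 and limma-voom 4. Of 15 tested regulators of collagen transcription 0 passed in edgeR's quasi-likelihood test and 0 had an unadjusted p under 0.05, and DESeq2 and limma-voom called 0. Tgfbr1, a TGF-beta receptor, had a log2 fold change of 0.39 (SE 0.19), and Sp1, a factor that binds GC boxes, 0.24 (SE 0.12).

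The remaining marker lists ran as follows. Smooth muscle and pericyte markers summed to 41.5 to 57.6 CPM in NM1 KO mice, against 52.4 to 63.9 CPM in NM1 WT mice, with 0 of 7 tested called by edgeR's quasi-likelihood test and 3 lower at an unadjusted p under 0.05. DESeq2 and limma-voom called 0 of them. Schwann cell and nerve markers summed to 114 to 135 CPM in NM1 KO mice, against 119 to 165 CPM in NM1 WT mice, with 0 of 4 tested past the threshold, 1 lower at an unadjusted p under 0.05 and 0 called by DESeq2 or limma-voom. Sox10, a defining marker of that lineage, had 0 counts in NM1 KO.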

How the data were processed

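The authors deposited raw read counts per Ensembl gene, 1 file per mouse, with no normalisation. The submitters' processing notes name HTSeq, HISAT2 2.0.4, Trimmomatic 0.36, SAMtools 0.1.19 and FastQC, with GRCm38 and mm10 as builds. Neither the annotation release nor the strand setting of the count is given in the sources used here. Low counts were nearly all even (2417 genes with 2 counts and 6 with 1 in NM1 KO 1), as when both mates of a pair are counted.

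Of 46603 genes, 46005 matched GENCODE M21 (GRCm38). Genotypes were compared with edgeR 4.0.16 (R 4.3.3): filterByExpr, TMM, quasi-likelihood F test with genotype as the only term, and Benjamini-Hochberg adjustment over all 15069 tested genes at 0.05. CPM use the TMM factors, errors are SD over 3 mice, and intervals from counts cover counting error only. The SE of an edgeR log2 fold change was derived from the test, as its absolute value over the square root of the F statistic. Levels per kilobase use the longest APPRIS principal transcript. DESeq2 1.42.0 and limma 3.58.1 were alternatives. Replicate numbers were not used to pair the mice in the main fit.

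The members, lists and tests were chosen with earlier results of these data known. Members with a mean of at least 1 CPM in either genotype are described one by one, and from each pathway list up to 4 genes past the threshold, or the 2 of smallest p. Other genes named, such as Esam, Bglap, Sp7, Runx2, Ifitm5, Pi16, Vim, Sox9, Comp and Sox10, were chosen after their values were seen.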

Additional observations from a re-analysis of the deposited data

How the results depend on the processing

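Col1a2 passed under all 15 settings tried on it, and no other collagen gene did. The number of collagen genes past the threshold was 1 with edgeR and 1 with RLE or total-count scaling, a filter of 10 counts in 3 libraries, limma-voom, halved counts or the Y-linked state as a covariate. It was 5 with no low-count filter, 4 with DESeq2, and 1 to 3 when single libraries were left out. Pathway genes past the threshold numbered 2, against 21 with no filter, 11 with DESeq2, 0 with limma-voom (20 at an unadjusted p under 0.05), 0 with the Y-linked state (16 at an unadjusted p under 0.05), and 0 to 6 without single libraries. All genes past the threshold numbered 117, against 1138, 794, 37, 60, and 26 to 344 in the same order. With a replicate block the counts were 3 collagen genes, 5 pathway genes and 421 genes. Deviations of same-numbered mice correlated at 0.0636, 0.115 and 0.0609, against -0.0784 to 0.0172 for differently numbered mice across genotypes. Whether the numbers pair the mice was not tested. In the replicate block Col1a1 and Col6a3 passed as well. The causes were not tested.

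Among 24 collagen genes, those whose direction turned had main log2 fold changes from -0.32 (Col4a2) to 0.39 (Col12a1). Col4a1 (-0.26), Col5a1 (0.17) and Col6a1 (0.21) lay in that range and kept their direction under every setting. With limma-voom, the Y-linked state and the replicate block, Col5a2 came to 0.13, 0.23 and 0.08 and Col16a1 to 0.09, 0.12 and 0.06 on the log2 scale. With the Y-linked state Col5a3 came to 0.08 and Col8a1 to 0.03. Col16a1 was 0.03 with total counts and 0.01 with no filter. With 1 library left out, the range was -0.63 to 0.04 for Col4a2, -0.45 to 0.52 for Col5a2, -0.34 to 0.13 for Col5a3, -0.30 to 0.49 for Col7a1, -0.57 to 0.05 for Col8a1, -0.07 to 0.82 for Col12a1, -0.13 to 0.39 for Col14a1, -0.28 to 0.33 for Col16a1, -0.10 to 0.57 for Col23a1 and -0.31 to 0.04 for Col27a1. Depth limits the 16 untested members and those under about 1 CPM.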
